A study of Homo sapiens with 4 samples.

Results

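The cytosolic ribosomal protein genes encode the proteins of the small (40S) and large (60S) ribosomal subunits. Members were all genes whose symbol in the platform annotation was RPL or RPS followed by a number, with an optional A, X, Y or L suffix, or RPLP0, RPLP1, RPLP2 or RPSA. Kinases named RPS6K and symbols with a P and number suffix, which mark pseudogenes, were left out. This gave 73 genes on 87 probes, of 18639 named genes on 21707 probes. They comprised 28 genes of the small subunit and 45 of the large subunit. Of the 73, 62 were core genes and 11 were paralogs, which are later copies of a core gene. RPLP0, RPSA and RPL36A were not analysed here. RPS4Y1 and RPS4Y2, which are Y-linked, are counted among the 73, and their levels are not given.

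RNA was measured in HEK293 cells, an immortalized line from human embryonic kidney, that carried a transgene for LGP2 or for LGP2-4KR (called LGP2 cells and 4KR cells below). LGP2 is a cytoplasmic helicase that belongs with RIG-I and MDA5 among the sensors of viral RNA, and the labels do not define 4KR. Each line was taken unstimulated (0 h) and 12 h after Lipofectamine transfection of short poly I:C at 100 ng/ml, a low-molecular-weight synthetic double-stranded RNA. The resulting 4 groups had 1 array each, so a ratio within 1 line has no replicate check, and precision is limited by how few arrays there are. No array came from cells given the transfection reagent alone, so the reagent and the poly I:C cannot be told apart. The labels do not say which promoter drives the transgenes or whether a line is 1 clone.

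Ribosomal proteins are made in near-equal numbers, and their RNAs are among the most abundant in a growing cell. Core members are known to start transcription at a C that is followed by an unbroken run of pyrimidines, the 5′ terminal oligopyrimidine (TOP) motif, through which the mTOR pathway and the RNA-binding protein LARP1 set how strongly these RNAs are translated. Double-stranded RNA in the cytosol is a viral signature that induces interferon-stimulated genes and, through the kinase PKR, can slow translation.

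The annotated start sites of members that the results turn on are shown first, because the run of pyrimidines that defines the class can be read in them. Each window holds 10 bases before the annotated first base and 20 from it on, 5′ to 3′ on the strand of the gene, from RefSeq on GRCh38.p14. Capitals mark the annotated first base and the unbroken run of C and T from it. RPL22 and its paralog RPL22L1 both carry the motif, and they were called in opposite directions.
RPL22: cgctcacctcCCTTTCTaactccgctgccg
RPL22L1: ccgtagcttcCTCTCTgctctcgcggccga
The windows lie at chr1:6199576-6199605 and chr3:170870176-170870205, both on the minus strand. RPL34, at chr4:108620566-108620595 on the plus strand, carried the motif at the first of its annotated starts and was called lower. RPL37A, at chr2:216498834-216498863 on the plus strand, also carried it and was called higher.
RPL34: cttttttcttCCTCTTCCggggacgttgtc
RPL37A: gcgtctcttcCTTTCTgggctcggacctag
RPS27, at chr1:153990752-153990781 on the plus strand, starts with the motif, whereas its paralog RPS27L, at chr15:63157458-63157487 on the minus strand, starts with a purine.
RPS27: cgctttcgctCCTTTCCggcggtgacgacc
RPS27L: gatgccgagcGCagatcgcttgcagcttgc
RPS26, at chr12:56041908-56041937 on the plus strand, starts with a purine at its annotated first base.
RPS26: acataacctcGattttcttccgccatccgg

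A promoter entry existed for 61 of the 73 members, 8 of which had more than 1 annotated start. The motif was counted as a C at the annotated first base followed by at least 4 more bases that are C or T, on the gene's strand, at any annotated start. It was present in 41 of the 61 members (67.2%), against 883 of 13413 tested genes with an entry (6.58%). Of the core members 39 of 53 (73.6%) carried it, and of the paralogs 2 of 8. The count depends on the annotated first base, so a start annotated a few bases away from the true one is missed.

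The member probes were among the brightest spots of every array. Their median normalized level, a log2 intensity, lay between 13.5 and 13.6 on the 4 arrays, against 6.67 to 6.68 for all named genes that were tested. Of the 20 brightest gene probes, 10 were member probes on both LGP2 arrays and 9 on both 4KR arrays. Brightness depends on the probe as well as on the RNA, so levels of different genes are not ranked as RNA amounts. Detection meant a signal above the mean of the blank spots by more than 2 of their SDs. All 73 members were detected on 3 of the arrays and 72 on the array of unstimulated LGP2 cells. The cell line was checked against markers known from HEK293 cells. Of 8 such markers, 7 had a probe and were detected on all 4 arrays, with NEFL (neurofilament light) between 8.98 and 9.46 and VIM (vimentin) between 9.35 and 9.53. PTPRC, a leukocyte marker, and ALB, a hepatocyte marker, were detected on 0 arrays. CDH5, an endothelial marker, was detected on 3, at levels of 5.75 to 5.84, and KRT5, a keratinocyte marker, on 4, at 7.35 to 7.53. The KRT5 spot was thus brighter than those of INA, NEFM, NEFH and PAX2. DHX58, the gene of LGP2, read 7.14 and 6.66 at 0 h and 7.14 and 7.04 at 12 h in LGP2 and 4KR cells, and whether its probe detects the transgenes was not tested.

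The response to stimulation was first described within each line, as the log2 ratio of the 12 h array over the 0 h array. No member passed a 1.5-fold difference in either direction in either line, in a processing that shrinks the ratios of dim genes. Among the 17085 genes tested, 0.498% passed it downward and 1.83% upward in LGP2 cells, and 0.410% and 1.54% in 4KR cells. The median ratio of the members was -0.04 in LGP2 cells, with a range from -0.58 to 0.53, and 49 of 73 lay below 0. In 4KR cells the median was -0.04, the range ran from -0.58 to 0.38, and 43 lay below 0. The median over all genes tested was -0.01 in both lines. The members' median over both lines lay 0.04 below that of all genes, 0.01 above it with cyclic loess normalization, 0.09 below it with median scaling and 0.46 below it in the authors' deposited scaling. With the blank level simply subtracted, the mean ratios of RPL23A, RPL32 and RPL34 lay just past 1.5-fold downward, at -0.588, -0.588 and -0.585. The share of all genes past 1.5-fold in that setting is not given here, and 0 of all genes were called lower in it.

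For the test, the lines stood in for replicates in a limma fit with line and time as additive terms, adjusted by Benjamini-Hochberg over all 17085 genes. At an adjusted p under 0.05, 8 of 73 members (10.96%) fell and 2 (2.74%) rose, and 63 were not called. Over all genes tested, 7.30% fell and 7.95% rose. Against that background, neither share is read as particular to the ribosomal protein genes. At an unadjusted p under 0.05 the fit gave 14 members lower and 4 higher. The share of all genes at that threshold was not counted, so these numbers are not read as a result about the members. Both 12 h arrays lay below both 0 h arrays for 33 members, where 35.0% of all genes did so, and above them for 9, where 28.1% of all genes did so. The groups overlapped for the other 31. The core genes of the small subunit had 1 of 24 called lower and 0 higher, with a median ratio of -0.04. Those of the large subunit had 5 of 38 lower and 1 higher, with a median of -0.05. The paralogs had 2 of 11 lower and 1 higher, with a median of -0.03. The counts depend on the scaling. With median scaling 28 members were called lower and 4 higher, where 3312 and 4038 of all 17085 genes were. Without normalization between arrays the members had 0 and 10, and all genes 21 and 6927. With the deposited scaling the members had 1 and 1, and all 15968 genes with values 41 and 1965. With the blank level simply subtracted the members had 0 and 0, and all genes 0 and 74.

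**Figure D1:**
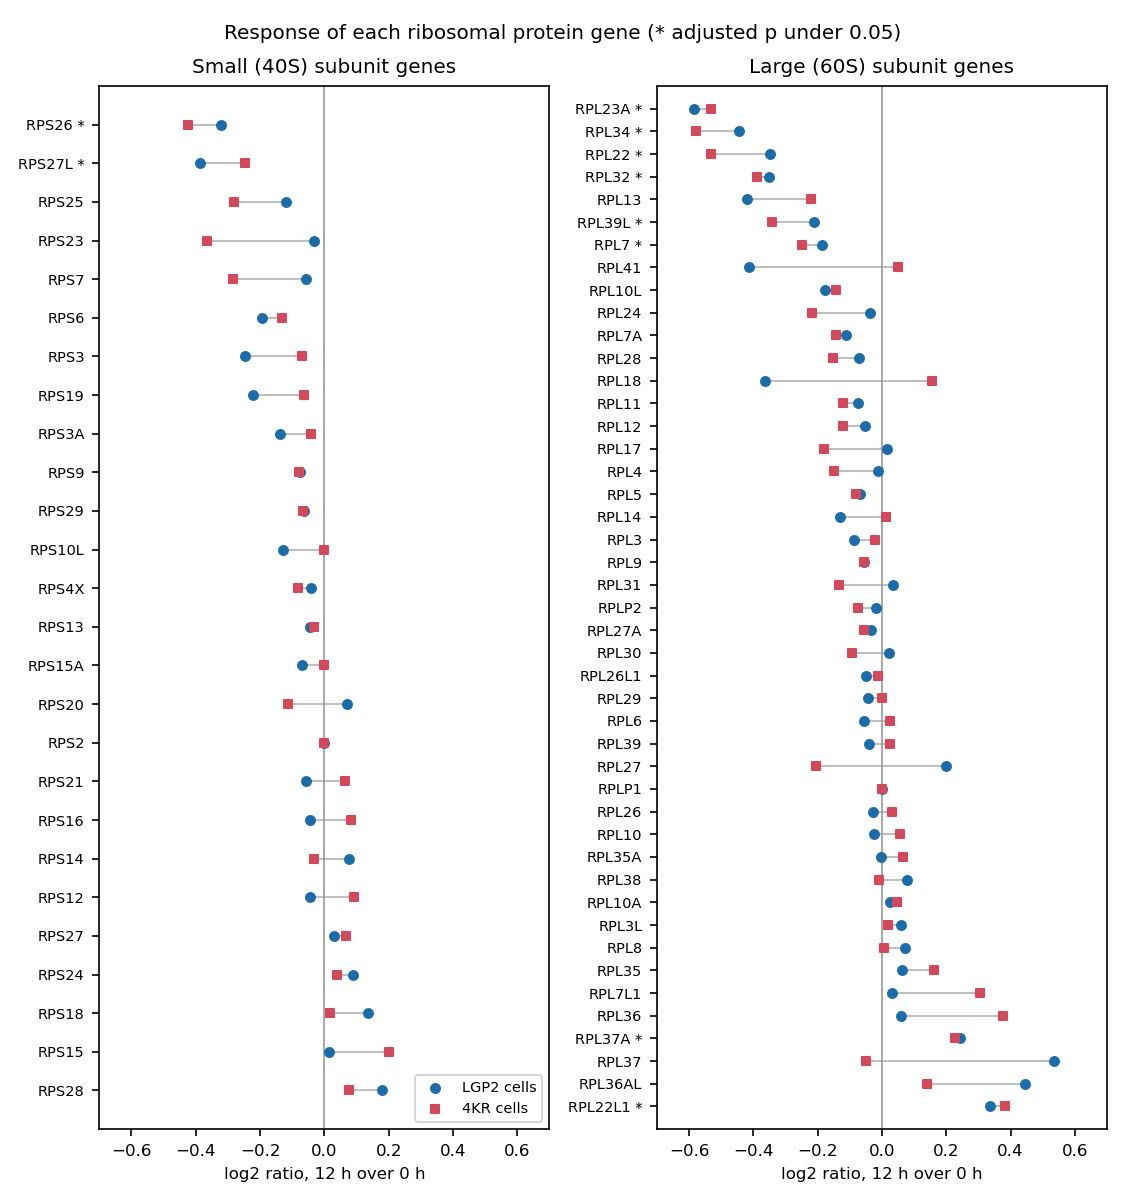
Log2 ratio of the 12 h array over the 0 h array for each of 71 ribosomal protein genes (the Y-linked pair is not drawn), small subunit on the left and large subunit on the right, with circles for LGP2 cells, squares for 4KR cells and a line joining them. An asterisk marks the 10 genes with an adjusted p under 0.05 in the additive fit. Most genes lie within 0.2 of 0 in both lines, and RPL23A and RPL34 lie farthest to the left.

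Genes of the large subunit gave the largest decreases. RPL23A, a protein beside the exit of the peptide tunnel where the signal recognition particle docks, had levels of 10.35 in LGP2 and 10.28 in 4KR cells at 0 h. At 12 h its levels were 9.77 and 9.75. Both stimulated arrays were thus well below both unstimulated ones, and the lines differed by less than the response. RPL23A fell by 0.56 on the log2 scale (SE 0.03, adjusted p = 0.0238), a 1.47-fold decrease.

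RPL34, another protein of the large subunit, read 8.93 and 9.05 at 0 h and 8.49 and 8.47 at 12 h, in LGP2 and 4KR cells. The groups did not overlap, and RPL34 fell by 0.51 (SE 0.05, adjusted p = 0.0259). RPL22, an RNA-binding protein on the surface of the large subunit, read 11.53 and 11.47 at 0 h and 11.18 and 10.94 at 12 h. It fell by 0.44 (SE 0.06, adjusted p = 0.0355). Its deposited intensities went from 1612 to 1215 in LGP2 cells and from 1466 to 926 in 4KR cells. In that scaling RPL22 was not called (limma adjusted p = 0.0602), and the members had a median ratio of -0.26, against 0.20 for all genes.

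RPL32 was a dim spot, at 7.43 and 7.33 before and 7.08 and 6.95 after stimulation. It fell by 0.37 (SE 0.03, adjusted p = 0.0250). RPL7, one of the bright members, read 13.74 and 13.77 at 0 h and 13.55 and 13.52 at 12 h. It fell by 0.22 (SE 0.03, adjusted p = 0.0444), the smallest decrease among those called.

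In the small subunit, RPS26 was the 1 core gene that passed the test. This protein lines the channel through which the mRNA leaves the ribosome. It read 9.51 in LGP2 and 9.57 in 4KR cells at 0 h, and 9.19 and 9.14 at 12 h. RPS26 fell by 0.37 (SE 0.04, adjusted p = 0.0289), whereas its mean ratio was 0.06 without normalization between arrays, a setting in which all genes had a median of 0.19.

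Both increases were also in the large subunit. RPL22L1, which can take the place of RPL22 in the ribosome, read 8.63 and 8.72 at 0 h and 8.96 and 9.10 at 12 h. It rose by 0.36 (SE 0.03, adjusted p = 0.0251), a 1.28-fold increase. Its deposited intensities were 168 and 180 before stimulation and 255 and 259 after it. The mean ratio in that scaling was 0.56, where all genes had a median of 0.20. RPL22L1 was called higher in 11 of 12 alternative settings. RPL37A, a zinc-binding protein of the large subunit, read 13.91 in LGP2 and 14.15 in 4KR cells at 0 h, and 14.15 and 14.38 at 12 h. The stimulated LGP2 array was therefore no higher than the unstimulated 4KR array, and the call rests on the change within each line. RPL37A rose by 0.23 (SE 0.03, adjusted p = 0.0342) in the fit, and its mean ratio was -0.02 in the authors' deposited scaling, where all genes had a median of 0.20.

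Among the 5 highest mean ratios, 3 did not pass the test. RPL36AL, a paralog of RPL36A, read 11.40 in LGP2 and 11.71 in 4KR cells at 0 h, and 11.84 and 11.85 at 12 h. Its ratio was 0.44 in LGP2 and 0.14 in 4KR cells (mean 0.29, SE 0.09, adjusted p = 0.135). RPL37 read 7.75, 8.39, 8.29 and 8.34 in unstimulated LGP2, unstimulated 4KR, stimulated LGP2 and stimulated 4KR cells (mean ratio 0.24, SE 0.16, adjusted p = 0.419). The unstimulated LGP2 array alone was low. RPL36 read 12.84, 12.34, 12.90 and 12.71 in the same order (mean ratio 0.22, SE 0.09, adjusted p = 0.226), and here the unstimulated 4KR array alone was low.

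Members were also split by the brightness of their spots. Of 51 members with a mean level of at least 12, RPL7 fell and RPL37A rose, and the median ratio was -0.04. Of 22 members below that level, 7 fell and RPL22L1 rose, and the median ratio was -0.15. Over all genes tested, 7.30% fell and 7.95% rose. Shares of all genes on either side of level 12 are not given here, so the split is not read as particular to the members. The order of these medians turned round with median scaling, at -0.14 for the brighter and -0.09 for the dimmer members with 20 and 8 called lower, and with the deposited scaling, at -0.29 and -0.07. Quantile normalization gives each array the same set of levels, and at the bright end these levels are far apart and shared by few spots. RPS2 at 15.49 and RPLP1 at 14.87 held the same rank on all 4 arrays, so their ratios were exactly 0.00 by construction. Their mean ratios without normalization were 0.08 and 0.14. The deposited intensities of RPS2 were 26820 and 25840 at 0 h and 22758 and 20545 at 12 h, in LGP2 and 4KR cells. Those of RPLP1 were 16690 and 16861 at 0 h and 14964 and 13826 at 12 h. The member probes held 15.5% (LGP2) and 15.6% (4KR) of the gene-probe signal above the blank level at 0 h, and 13.7% and 13.6% at 12 h. The share of gene probes detected rose over the same interval, from 83.2% and 83.8% to 89.2% and 88.0%. The part of this shift of the signal in the members' ratios was not tested. Arrays give each RNA relative to the rest of the RNA, so total RNA per cell was not measured.

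**Figure D2:**
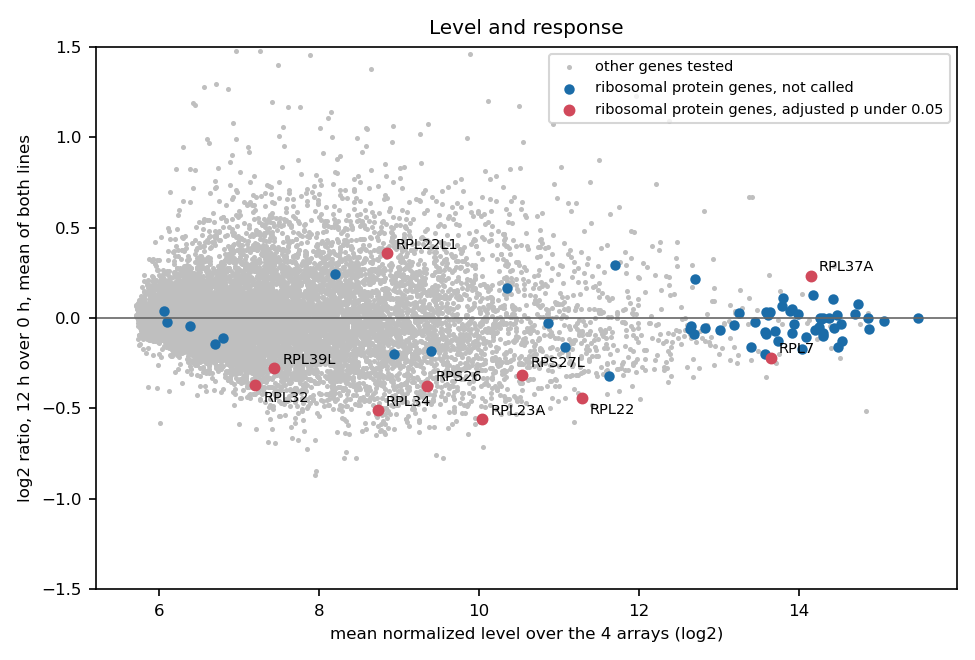
Mean normalized level over the 4 arrays (log2, horizontal) against the mean log2 ratio of 12 h over 0 h in both lines (vertical), for the ribosomal protein genes (large points, the called ones in red and named) and the other genes tested (small grey points). The vertical axis stops at 1.5 and leaves 36 genes outside, and the members drawn right of 12 lie between -0.22 (RPL7) and 0.23 (RPL37A).

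The members with the brightest spots showed small ratios that did not pass the test. They were RPS2, which sits at the mRNA entry of the small subunit, RPL6, RPS4X, RPLP1 and RPS18, with mean levels from 14.73 to 15.49. RPL6 had a mean ratio of -0.01 (adjusted p = 0.840), RPS4X of -0.06 (adjusted p = 0.302) and RPS18 of 0.08 (adjusted p = 0.346) in the limma fit. RPLP1 and RPLP2 form the flexible stalk of the large subunit that recruits translation factors. RPLP2 read 12.65 and 12.71 at 0 h and 12.63 and 12.63 at 12 h, and its mean ratio was -0.05 (SE 0.03, adjusted p = 0.443).

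The paralogs were then set beside their core genes. RPL22 fell while RPL22L1 rose, and this was the 1 pair whose genes were called in opposite directions. RPS27L, a paralog of RPS27 known as a p53 target, read 10.66 and 10.74 at 0 h and 10.27 and 10.49 at 12 h. It fell by 0.32 (SE 0.05, adjusted p = 0.0422), with a mean ratio of 0.03 without normalization between arrays. Its core gene RPS27 read 13.88 and 13.91 at 0 h and 13.91 and 13.97 at 12 h (mean ratio 0.05, adjusted p = 0.396). RPL39L, a paralog of RPL39 best known from male germ cells, read 7.55 and 7.59 at 0 h and 7.34 and 7.25 at 12 h. It fell by 0.28 (SE 0.05, adjusted p = 0.0498), at the edge of the threshold, with a mean ratio of 0.12 without normalization. RPL39 itself had a mean ratio of -0.01 (adjusted p = 0.917). The difference between the genes of a pair was not tested.

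RPL7 fell, whereas its paralog RPL7L1, a factor of pre-ribosome assembly, had ratios of 0.03 in LGP2 and 0.31 in 4KR cells (adjusted p = 0.277). RPL10L, an autosomal copy of the X-linked RPL10, read 11.18 and 11.13 at 0 h and 11.01 and 10.99 at 12 h. The groups did not overlap, but its mean ratio of -0.16 missed the threshold (SE 0.03, adjusted p = 0.0630), and RPL10 had a mean ratio of 0.02 (adjusted p = 0.825). RPL26L1 had a mean ratio of -0.03 (adjusted p = 0.603) and RPL26 a mean ratio of 0.00 (adjusted p = 0.970). RPL3L, the muscle paralog of RPL3, was near the lower end of detection, at 6.04 to 6.09 on the 4 arrays, with a mean ratio of 0.04 (adjusted p = 0.511). RPL3 had a mean ratio of -0.05 (adjusted p = 0.389).

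**Figure D3:**
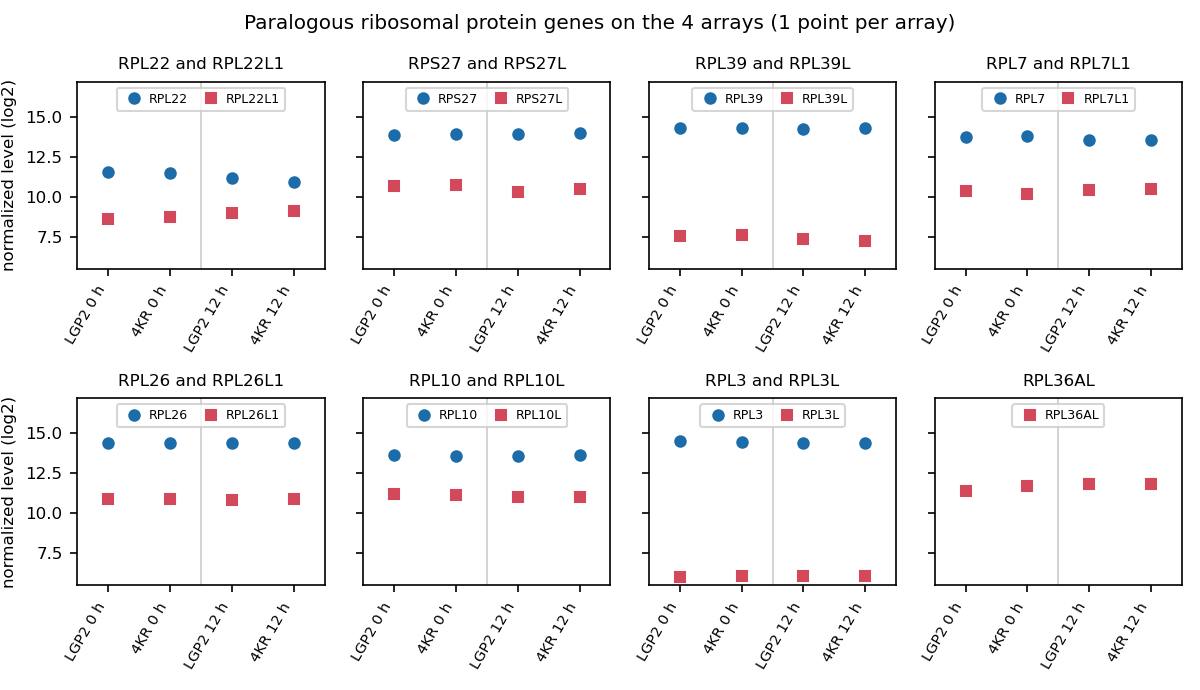
Normalized level (log2) of each paralog (squares) and its core gene (circles) on the 4 arrays, 1 point per array, with 0 h left and 12 h right of the vertical line. RPL36A was not analysed here, heights of different probes are not comparable, and RPL22 steps down from 11.53 and 11.47 to 11.18 and 10.94 where RPL22L1 steps up from 8.63 and 8.72 to 8.96 and 9.10.

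The responses of the lines were next compared gene by gene. Of 73 members, 35 had ratios below 0 in both lines, 14 above 0 in both, and 24 had opposite signs or a ratio of 0. Across the 73 members, which are not independent replicates and share the 4 arrays, the ratios correlated with Pearson's r = 0.58 and Spearman's rho = 0.52. Subtracting the LGP2 ratio from the 4KR ratio gave a median of 0.00 on the log2 scale. No member passed 1.5-fold, as 0.837% of all genes did, although RPL37 fell just short of it. These differences rest on 1 array per group and have no test.

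The largest differences were in RPL37, RPL27 and RPS23 on the negative side and in RPL18, RPL41 and RPL36 on the positive side. RPL37 had ratios of 0.53 in LGP2 and -0.05 in 4KR cells, a difference of -0.58. RPL27 had 0.20 and -0.20, a difference of -0.40, and RPS23 had -0.03 and -0.37, a difference of -0.33. RPL18 had -0.36 and 0.16, a difference of 0.52. RPL41 had -0.41 and 0.05, a difference of 0.46, and RPL36 had 0.06 and 0.38, a difference of 0.32. Of these 6 genes, 4 had a probe in block 20, 21 or 24 of the array, 3 blocks of spots that stood apart in earlier results of these data. Over all members, 6 of 73 had a probe there. With the median deviation of each block taken off, the differences were -0.52 for RPL37, -0.34 for RPL27, -0.32 for RPS23, 0.40 for RPL18, 0.40 for RPL41 and 0.29 for RPL36. The part of the position on the array in what remained was not tested.

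RPL41 shows how far probes of a gene can part. Its probe in block 2 had ratios of -0.35 in LGP2 and -0.40 in 4KR cells, and its probe in block 24 had -0.48 and 0.50. Over the 14 members with a pair of probes, the probes' mean ratios differed by a median of 0.07, and RPL41 had the largest gap, 0.38. RPL3 was among the others with a visible gap, with mean ratios of -0.17 and 0.06 at its probes. Chosen after its values were seen, RPS28 had 0.02 in block 10 and 0.23 in block 20.

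**Figure D4:**
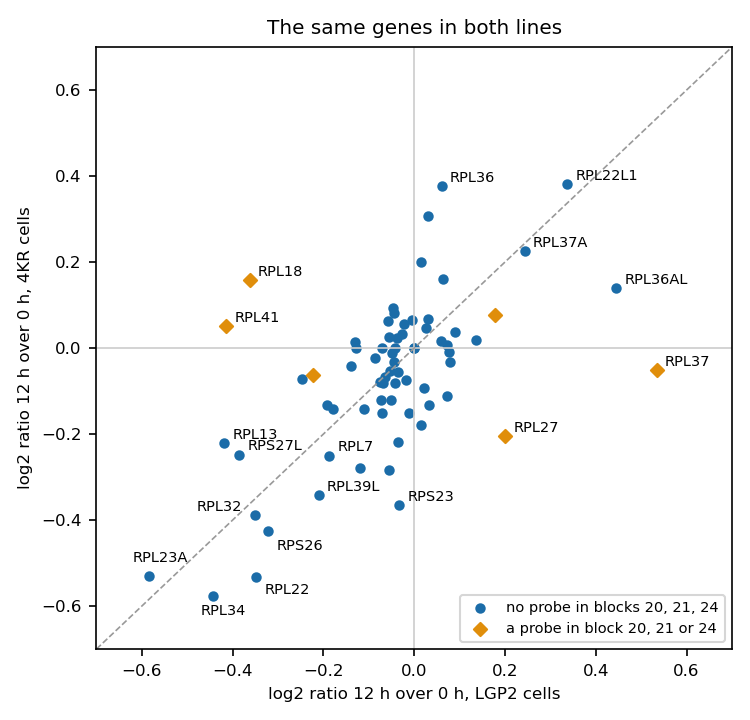
Log2 ratio of 12 h over 0 h in LGP2 cells (horizontal) against 4KR cells (vertical) for 71 ribosomal protein genes, with equal ratios on the dashed line and orange diamonds for genes with a probe in block 20, 21 or 24. The called genes lie near the dashed line at lower left and upper right, and RPL18, RPL41, RPL37 and RPL27, all diamonds, lie far from it. The fit favours genes whose ratios are alike in both lines, so the place of the called genes follows in part from their selection.

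The lines were also compared at each time. At 0 h the log2 ratio of 4KR over LGP2 had a median of 0.00 over the members and ran from -0.50 for RPL36 to 0.64 for RPL37. RPL37 was the 1 member past 1.5-fold, upward, as 0.123% of all genes were. At 12 h the median was -0.01 and the range narrowed to between -0.25 and 0.23, and no member passed 1.5-fold, as 0.0936% of all genes did in either direction. RPL22 stood at -0.06 at 0 h and -0.25 at 12 h, and RPL23A at -0.07 and -0.02. At 0 h the lines differed in RPL37A by 0.24, about as much as the stimulation changed it in each line.

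The members were also set side by side by the TOP motif. The 41 with it had a median ratio of -0.05, with 2 called lower and 2 higher. The 20 without it had a median of -0.06, with 3 called lower and 0 higher. Over all tested genes with an entry, 883 with the motif had a median of -0.02, with 87 called lower and 66 higher. The 12530 without it had a median of -0.01, with 913 lower and 1083 higher. The called members with the motif included RPL22 and RPL22L1, which moved in opposite directions. RPL32 had no motif at any of its 3 annotated starts and was called lower. The split depends on the annotated first base, so a member whose start is annotated a few bases off can count as without the motif. FAU, which encodes RPS30 fused to a ubiquitin-like protein and escapes the symbol rule, had a mean ratio of -0.03 (limma, adjusted p = 0.791). RACK1, also outside the rule, was not analysed here.

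Genes that act with the ribosomal proteins were read from gene lists in the same fit. A list of translation factors and other genes whose RNAs are usually counted in the TOP class, among them NAP1L1, TPT1, HNRNPA1, VIM and FAU, had 9 of 19 tested members called lower and 0 higher, with a median ratio of -0.22. EEF1A1, the elongation factor that delivers tRNA, was the lowest. It read 8.59 and 8.51 at 0 h and 8.05 and 8.02 at 12 h and fell by 0.52 (SE 0.03, adjusted p = 0.0242). EIF3A, an initiation factor subunit, was the highest of the list at 0.05 (adjusted p = 0.390). The median of this list lay below that of all genes by 0.16 to 0.53 in the scalings tried, but its own sign was positive, 0.03, without normalization between arrays. The count called lower was 0 without normalization, in the deposited table and with simple subtraction of the blank. Of the 12 listed genes with a promoter entry 10 carried the motif, and their median ratio was -0.21, against -0.05 for the ribosomal protein genes that carried it. The list also had dimmer spots, with a median level of 10.57 over its 19 tested genes, against 13.59 over the 73 ribosomal protein genes. Common control genes had a similar median level, 10.78, and a median ratio of -0.23, with 4 of 16 called lower. Over all genes tested, 7.30% were called lower. The fall of this list is therefore not read as particular to the TOP class. The differences between these median ratios, and the part of the level in them, were not tested.

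Ribosome biogenesis genes, whose products transcribe, cut, modify and assemble ribosomal RNA, had 31 of 73 called higher and 1 lower, with a median ratio of 0.18. Over all genes tested, 7.95% were called higher and 7.30% lower. With the blank level simply subtracted, the count of biogenesis genes called higher was 0. NOP58, a core protein of the box C/D particles that methylate ribosomal RNA, was the highest. It read 10.48 and 10.72 at 0 h and 11.47 and 11.41 at 12 h and rose by 0.84 (SE 0.09, adjusted p = 0.0275), with its probe in block 20. NHP2, of the box H/ACA particles that make pseudouridine, was the lowest and fell by 0.41 (SE 0.04, adjusted p = 0.0261), with a mean ratio of 0.02 without normalization. The median of the list lay above that of all genes under each of the scalings tried, by 0.16 to 0.41. Chosen after their values were seen, NIP7 and NOL11, both factors of ribosomal RNA processing, rose by 0.77 each (adjusted p = 0.0238 and 0.0214). In the same fit, the ribosomal proteins that these factors assemble had no member past 1.5-fold in the mean of the lines. Of the 73 biogenesis genes 7 passed it upward, as 246 of all 17085 genes did. The biogenesis genes had dimmer spots, with a median level of 8.98 against 13.59 for the ribosomal protein genes. The part of the level in this contrast was not tested. With the blank level simply subtracted, RPL23A, RPL32 and RPL34 passed 1.5-fold downward, in a setting for which the share of all genes past it is not given.

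Mitochondrial ribosomal proteins, which build the separate ribosome of the mitochondrion, had 7 of 75 called lower and 9 higher, with a median of 0.01. MRPL13 was the lowest at -0.45 (adjusted p = 0.0538), and MRPL34 was the highest and rose by 0.56 (SE 0.04, adjusted p = 0.0242). Regulators of ribosomal protein synthesis had 2 of 20 called lower and 3 higher, with a median of -0.05. AKT1, a kinase upstream of mTOR, fell by 0.38 (SE 0.04, adjusted p = 0.0285), with a mean ratio of 0.02 without normalization. DDIT4, which restrains mTOR, rose by 1.07 (SE 0.04, adjusted p = 0.0191). Chosen after its values were seen, MTOR itself fell by 0.37 (SE 0.03, adjusted p = 0.0247), with 0.09 without normalization, and LARP1 had a mean ratio of -0.12 (adjusted p = 0.106). As a check that the stimulation acted, 27 of 29 antiviral genes rose and 0 fell, with a median of 1.67. IFIT1, which binds viral RNA ends, rose by 6.83 (adjusted p = 0.00683), and OAS2 was the lowest at 0.15 (adjusted p = 0.0951).

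**Figure D5:**
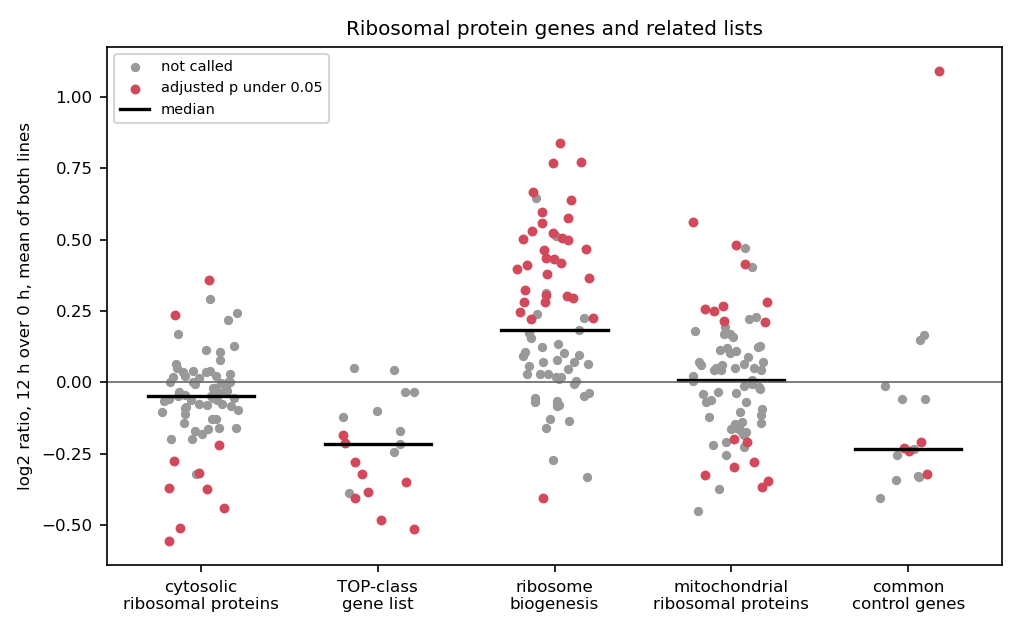
Mean log2 ratio of 12 h over 0 h in both lines for each gene of 5 lists, 1 point per gene, red where the adjusted p is under 0.05 and grey otherwise, with a bar at the median of each list. The ribosomal protein genes (the Y-linked pair not drawn) and the mitochondrial ones centre near 0. The TOP-class list has a median of -0.22, the common control genes of -0.23 and the biogenesis genes of 0.18.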

How the data were processed

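Per the labels, total RNA was amplified, coupled to Cy5 and hybridised to 4 one-colour arrays. Per the file headers, the authors deposited a median intensity per spot in scanner units, not normalized, read at 3 gains. The authors' deposited series table holds intensities whose median is 25 on each array; the sources used here do not say how they were made. Here the mean of 384 blank spots served as background (normexp, offset 50), followed by quantile normalization over 24460 gene probes, log2, and the mean of a gene's probes, with limma 3.58.1 in R 4.3.3. The offset shrinks ratios of dim genes. Tested were 17085 genes detected on at least 1 array. The additive fit leaves 1 residual degree of freedom per gene before moderation. Its p-values rest on how far the responses of the lines differ, not on a spread between cultures. The fit was tested on simulated data.

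Members and lists were chosen with earlier results of these data known. Named are the 5 brightest members, the 5 lowest and 5 highest mean ratios, the 3 largest differences of responses each way, RPLP0, RPLP1, RPLP2, the paralog pairs, FAU, RACK1, and each list's extremes. Alternatives changed offset, background, normalization, source table, array blocks, filter, probe choice, variance model and the line term. Some genes that the rules name are not reported here.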

Additional observations from a re-analysis of the deposited data

Results flagged for a closer look

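RPL18 moved in opposite directions in the lines, with a log2 ratio of 12 h over 0 h of -0.36 in LGP2 and 0.16 in 4KR cells, a difference (4KR minus LGP2) of 0.52. Its levels were 14.36 and 13.996 in LGP2 cells and 13.92 and 14.07 in 4KR cells, at 0 h and 12 h. The probe lay in block 24, and the difference was 0.40 with block medians taken off. RPL27 moved the other way, with 0.20 in LGP2 and -0.20 in 4KR cells, a difference of -0.40. Its levels were 14.23 and 14.43 in LGP2 cells and 14.38 and 14.18 in 4KR cells, and its probe lay in block 21, with a difference of -0.34 after the block correction. Each of these differences rests on 1 array per group and was not tested. Members were listed here when both ratios were at least 0.1 in size and opposite in sign.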

How the results depend on the processing

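Several values moved with the scaling between arrays, under which the median of all genes also shifted. Against a median log2 ratio of -0.04 in LGP2 cells, the members had 0.029 with cyclic loess, -0.16 with median scaling and -0.20 in the deposited table, where all genes had 0.25. Against -0.04 in 4KR cells they had 0.20 without normalization between arrays (all genes 0.26), 0.0048 with cyclic loess, -0.089 with median scaling and -0.31 in the deposited table (all genes 0.15). Members called lower, 8 as reported, numbered 0 with plain subtraction of the blank level, 0 without normalization, 28 with median scaling, 1 in the deposited table and 14 without blocks 20, 21 and 24. Members called higher, 2 as reported, numbered 0, 10, 4 and 1 in the first 4 of these settings, and 1 with a trend in the variance and 1 without the line term. Without the blocks 70 members were tested, and 2178 of 15210 genes were called lower, against 1247 of 17085 genes as reported. All genes called higher, 1359 as reported, numbered 1717 with the trend and 1680 without the line term. Plain subtraction called 0 genes lower and 74 higher of all tested. It gave 9 members lower and 1 higher at an unadjusted p under 0.05 (limma), a threshold at which all genes were not counted. The median difference of the responses was 0.21 without normalization, 0.068 with median scaling and -0.13 in the deposited table. The median ratio of 4KR over LGP2 was -0.054 without normalization and -0.041 with median scaling at 0 h, and 0.14 without normalization and -0.15 in the deposited table at 12 h. Biogenesis genes called higher, 31 as reported, numbered 0 with plain subtraction, 66 without normalization and 54 with median scaling. Genes of the TOP-class list called lower, 9 as reported, numbered 0 with plain subtraction, 0 without normalization and 0 in the deposited table. The sign turned for RPS26 (0.056), RPS27L (0.029) and RPL39L (0.12) without normalization and for RPL37A (-0.024) in the deposited table. Apart from these, the 10 called members kept their direction in all 12 alternatives. RPL22L1 kept its call in 11 of them, RPL23A in 10 and RPL22 in 9. The causes were not tested. The alternatives on the biogenesis genes and factors were chosen after seeing the data. With 1 array per group, no replicate could be left out. The line term already sets 0 h against 12 h within each line, and the labels carry no replicate number for a further block.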

Other observations

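The array also held 50 probes named for ribosomal protein pseudogenes, with a median normalized level of 12.6, and 31 of them had a level of at least 12. Of the 48 tested, 7 fell and 3 rose in the limma fit, with a median ratio of -0.09. Probe sequences were not used here, so RNA of a pseudogene and RNA of its parent gene cannot be told apart, and the same holds for members with near-identical copies.

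Common control genes had 4 of 16 called lower and 1 higher, with a median ratio of -0.23. B2M, the light chain of class I antigen presentation, was the highest and rose by 1.09 (SE 0.07, limma adjusted p = 0.0240). ACTB was the lowest, with a mean ratio of -0.41 (SE 0.09, limma adjusted p = 0.0717).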
